A study of Mus musculus with 6 samples.

Results

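The peaks described here are those of 6 primary granule genes of granulocyte-monocyte progenitors, Elane, Prtn3, Mpo, Ctsg, Cst7 and Ms4a3. A consensus peak was counted as a member when it overlapped the body of 1 of these genes, or lay within 50 kb with that gene as the nearest protein-coding gene, which gave 28 of the 182166 peaks in the table. The assay was ATAC-seq, where a transposase inserts sequencing adapters into accessible DNA, and 2 genotypes were compared. The GFI1-KD mice (GFI1 KD /KD) express human GFI1 at 10 to 20% in place of mouse Gfi1, and the GFI1-KI mice (GFI1 KI /KI) carry human GFI1 in place of the mouse gene. The table names the GFI1-KI columns wild type, and they were matched to GFI1-KI by number. In neither genotype is mouse Gfi1 expressed, and no group with the mouse gene is compared here. Both genotypes are C57BL/6 animals that were left untreated. The progenitors were taken from whole bone marrow by flow sorting. Each genotype had 3 libraries, named KD1 to KD3 and KI1 to KI3. Whether these came from separate mice or from pools is not stated in the labels, so the p-values measure the spread between libraries, which may be technical in part.

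Primary, or azurophil, granules are the first granules that a cell of the neutrophil line makes, at the progenitor and promyelocyte stages. They store proteases and an oxidant-producing enzyme that act on engulfed microbes. PU.1, C/EBP factors, RUNX1 and MYB are known to drive these genes, and GFI1, a zinc-finger repressor, is known as a regulator of neutrophil elastase. Elane encodes neutrophil elastase, a serine protease whose human gene is mutated in inherited neutropenia. Prtn3 encodes proteinase 3, a close relative that lies beside Elane. Mpo encodes myeloperoxidase, which makes hypochlorous acid, and Ctsg encodes cathepsin G, a further serine protease. Cst7 encodes cystatin F, which inhibits lysosomal cathepsins, and Ms4a3 encodes a membrane protein that is used to mark progenitors of granulocytes and monocytes.

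The start sites of these genes were examined first, since in 5 of the 6 genes a peak covered the start site. The exception was Prtn3, whose start lay in no consensus peak. The nearest peaks began 1191 bases into the gene and ended 1329 bases upstream. The 250 bases before each start are shown because the peaks of Elane, Mpo, Ctsg, Cst7 and Ms4a3 with the most reads overlap them. These peaks also run on into the gene, so the windows do not hold all of them. Prtn3 is shown so that it can be set beside its neighbour Elane. The windows are RefSeq sequences of build GRCm38.p6, the assembly of mm10, read 5′ to 3′ in the direction of transcription, and all 6 genes were matched by symbol. Capitals mark exact matches, on either strand, to TTNNGNAA for C/EBP, GAGGAA for PU.1, TGNGGT for RUNX, AACNG for MYB, AATCA for the GFI1 core or TATAAA for the TATA box. No match overlapped another among the 22 found.
Elane (chr10:79886062-79886311, plus strand): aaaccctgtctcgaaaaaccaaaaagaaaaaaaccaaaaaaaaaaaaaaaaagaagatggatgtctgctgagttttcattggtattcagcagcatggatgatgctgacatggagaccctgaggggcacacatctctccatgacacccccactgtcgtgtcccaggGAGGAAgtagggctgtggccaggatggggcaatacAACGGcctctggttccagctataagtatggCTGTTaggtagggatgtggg
Prtn3 (chr10:79879417-79879666, plus strand): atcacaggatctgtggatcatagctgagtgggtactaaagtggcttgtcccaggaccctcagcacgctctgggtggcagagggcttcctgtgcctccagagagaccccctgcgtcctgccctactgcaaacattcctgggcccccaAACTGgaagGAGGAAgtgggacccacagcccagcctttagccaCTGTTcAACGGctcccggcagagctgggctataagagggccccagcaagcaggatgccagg
Mpo (chr11:87793534-87793783, plus strand): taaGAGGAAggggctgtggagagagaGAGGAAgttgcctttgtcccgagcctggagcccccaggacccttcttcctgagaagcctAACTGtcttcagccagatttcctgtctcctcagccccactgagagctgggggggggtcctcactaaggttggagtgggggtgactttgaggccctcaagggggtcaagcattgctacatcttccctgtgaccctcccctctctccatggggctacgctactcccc
Ctsg (chr14:56102575-56102824, minus strand): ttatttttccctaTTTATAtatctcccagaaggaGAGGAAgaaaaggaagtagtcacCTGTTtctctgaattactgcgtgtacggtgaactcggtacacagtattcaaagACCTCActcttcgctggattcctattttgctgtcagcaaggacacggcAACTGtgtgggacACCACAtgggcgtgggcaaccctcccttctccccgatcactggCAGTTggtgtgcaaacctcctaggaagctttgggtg
Cst7 (chr2:150570165-150570414, plus strand): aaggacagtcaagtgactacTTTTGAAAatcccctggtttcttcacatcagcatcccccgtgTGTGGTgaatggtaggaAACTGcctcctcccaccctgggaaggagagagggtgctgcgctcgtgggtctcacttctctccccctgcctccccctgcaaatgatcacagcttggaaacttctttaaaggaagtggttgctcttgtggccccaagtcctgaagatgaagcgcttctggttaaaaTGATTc
Ms4a3 (chr19:11640852-11641101, minus strand): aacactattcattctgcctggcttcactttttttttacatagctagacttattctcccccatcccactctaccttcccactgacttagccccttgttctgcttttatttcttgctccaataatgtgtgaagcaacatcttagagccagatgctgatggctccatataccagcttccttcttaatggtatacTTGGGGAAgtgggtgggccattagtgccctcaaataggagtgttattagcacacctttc

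GAGGAA occurred before 4 of the 6 starts, those of Elane, Prtn3, Mpo and Ctsg, and before 22.2% of the 21263 start sites of protein-coding genes in the table. In Elane it began 85 bases before the start and AACGG, a match to AACNG, began 35 bases further on. In Prtn3 it began 95 bases before the start and the same 5 letters began 40 bases further on, although here no peak lay over the start. AACNG occurred before 5 starts, all but that of Ms4a3, against 73.1% of all start sites. TTNNGNAA was found at Cst7 and Ms4a3 (34% of all), and TGNGGT at Ctsg and Cst7 (38.5%). AATCA was found at Cst7 alone, 6 bases before the start on the opposite strand (32%). TATAAA was found at Ctsg alone, also on the opposite strand and as far as 237 bases before the start (11.6%). Only these exact letters were searched, so near matches closer to a start were not counted. These matches describe letters in these windows, and a window without one says nothing of whether a factor binds there.

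The libraries behind the values were compared next. The GFI1-KD libraries had 16022763 to 19857646 reads in peaks, the GFI1-KI libraries had 19408373 to 27741446, and each of the 28 peaks held at least 29 reads in every library. Values are normalized reads, the read counts per peak times 1 factor per library. Of 9 progenitor markers, 7 had a peak over the start site, and those of Mpo, Elane, Ctsg, Cebpa and Kit stood above the median of such peaks per length. These 7 peaks summed to 6229 to 6653 normalized reads in GFI1-KD and 6619 to 7010 in GFI1-KI, and 1 of them, at Kit, was called lower in GFI1-KD (log2 fold change -0.35, limma adjusted p = 0.00115). Over the start sites of Klf1, Hbb-bs, Hba-a1, Cd79a, Ebf1, Cd3e, Cd3d, Ncr1, Prg2, Epx, C1qa and Adgre1, markers of other blood cells, no consensus peak lay. The start peaks of Gata1, Epor, Itga2b and Cpa3, markers of erythroid, megakaryocytic and mast cells, were called lower in GFI1-KD. The start peaks of 2 of the 5 erythroid markers, Gata1 and Epor, summed to 14.8 to 31.0 normalized reads in GFI1-KD and 39.4 to 75.4 in GFI1-KI, and those of all 3 megakaryocyte markers to 613 to 807 in GFI1-KD and 847 to 1066 in GFI1-KI. Of the 4 eosinophil, basophil and mast cell markers, Cpa3 and Mcpt8 had a start peak. Their sums overlapped, at 274 to 331 in GFI1-KD and 305 to 344 in GFI1-KI, and Mcpt8 had a log2 fold change of 0.23 that did not pass the test. Those of all 4 markers of mature neutrophils summed to 782 to 953 in GFI1-KD and 714 to 798 in GFI1-KI, with 1 of the 4, Mmp8, called higher. Their part in the results was not tested, and in bulk samples fewer cells of a type cannot be told apart from less accessible chromatin per cell. KI1 lay with the GFI1-KD libraries in several of the sums below.

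All 28 peaks passed the filter of a mean of 10 normalized reads, and 1 of them was called different between the genotypes. It lay past the 3′ end of Mpo and was higher in GFI1-KD. This was 3.57% of the peaks. Of all 170733 tested peaks limma called 10.5% with a threshold of 0.05 on the adjusted p, 4.99% as higher and 5.48% as lower. Among all peaks with a mean in the range of these 28, the share was 13.4%. The log2 fold changes of the 28 peaks ran from -0.52 to 0.43, with a median of 0.09 against -0.05 over all tested peaks and a median size of 0.18 against 0.23. None of the 28 reached a log2 fold change of 1 in either direction, and the 95% interval of the log2 fold change lay within -1 and 1 for all 28 and within -0.5 and 0.5 for 19. Without adjustment 9 peaks had a p under 0.05, 5 with positive and 4 with negative fold changes, which is 32.1% against 25.5% of all tested peaks. The 3 values of each genotype did not overlap in 7 peaks (25%), 3 higher and 4 lower in GFI1-KD, against 28.8% of all tested peaks.

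**Figure D1:**
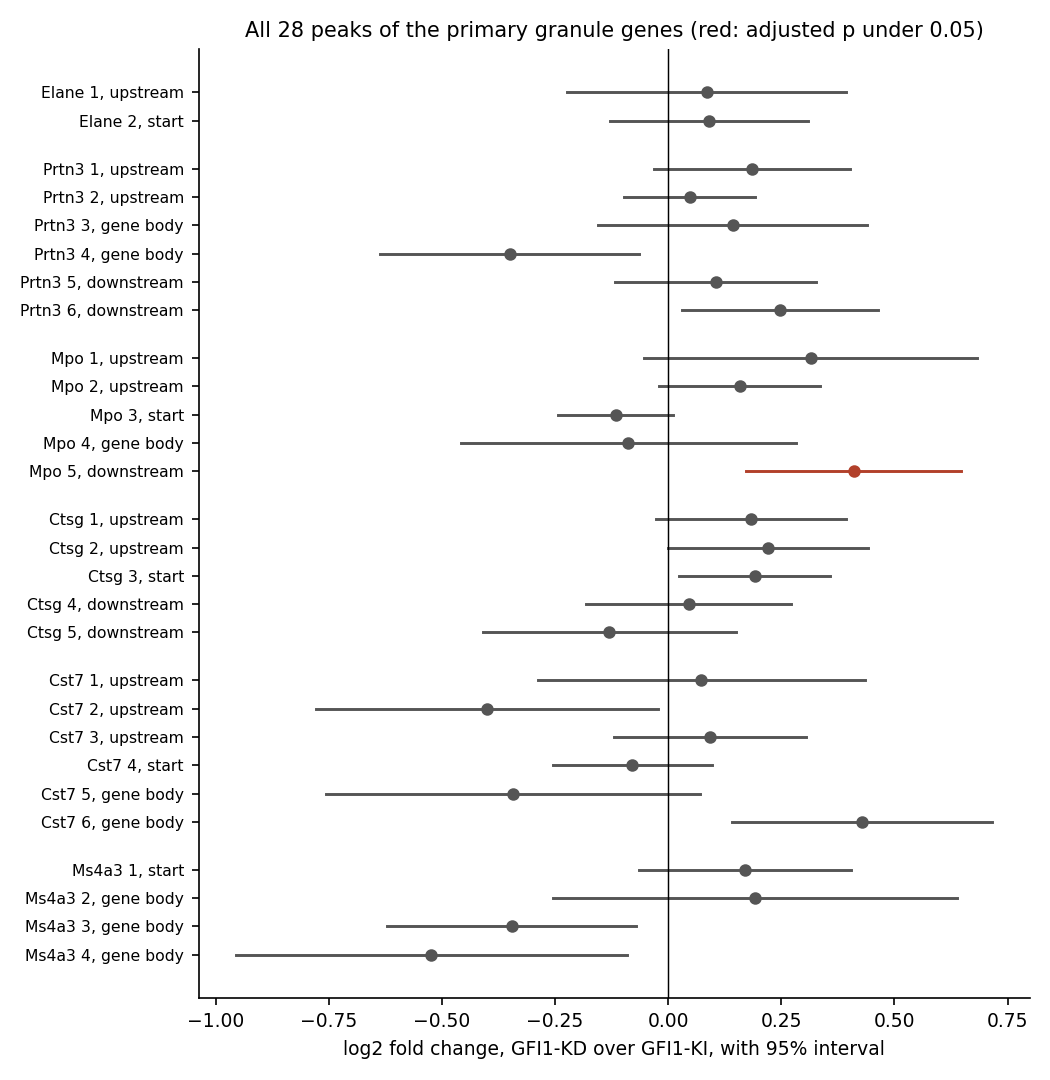
Log2 fold change of GFI1-KD over GFI1-KI for each of the 28 peaks (point) with its 95% interval from limma (line), numbered within each gene along the direction of transcription. Only the interval of Mpo peak 5 is drawn in red, for an adjusted p under 0.05, and all intervals lie between -0.95 and 0.72.

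Summed over its peaks, none of the 6 genes was called in a fit over 17735 genes, of which 17.2% were called. Elane, with 2 peaks, had 563, 538 and 532 summed normalized reads in KD1 to KD3, against 610, 447 and 491 in KI1 to KI3. The GFI1-KI libraries thus lay on both sides of the GFI1-KD libraries. The change was 6.36% (95% interval -7.09% to 21.8%, limma adjusted p = 0.527). Prtn3, with 6 peaks, had 2348, 2210 and 2226 in GFI1-KD, against 2261, 2118 and 2002 in GFI1-KI, so that KI1 lay inside the range of GFI1-KD. Its change was 6.42% (-2.22% to 15.8%, limma adjusted p = 0.291).

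The 5 peaks of Mpo summed to 2501, 2318 and 2510 in GFI1-KD, against 2322, 2390 and 2395 in GFI1-KI, a change of 3.05% (-4.95% to 11.7%, limma adjusted p = 0.612). Ctsg had the largest difference of the 6, with 2722, 2700 and 3098 in GFI1-KD against 2890, 2297 and 2489 in GFI1-KI. KI1 was above 2 of the GFI1-KD libraries. The change was 11.3% (0.597% to 23.1%, limma adjusted p = 0.127), and it passed the threshold without KI1 (0.0107), without KD1 (0.0446), under equal totals (0.0393), median-of-ratios scaling (0.0416) and the replicate block (0.0473), and with edgeR (0.0170) and DESeq2 (0.00580), within a range of 0.00580 to 0.536 over 20 alternatives. The share of all gene sums called in each of these settings is not given here, so these calls stand without it. The genes of cystatin F and of the membrane protein stood closest to no change. Cst7 summed to 1267, 1117 and 1239 in GFI1-KD against 1264, 1165 and 1152 in GFI1-KI, a change of 1.07% (-8.10% to 11.2%, limma adjusted p = 0.892). Ms4a3 summed to 760, 613 and 695 in GFI1-KD against 790, 633 and 659 in GFI1-KI, a change of -0.552% (-12.4% to 12.8%, limma adjusted p = 0.957).

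**Figure D2:**
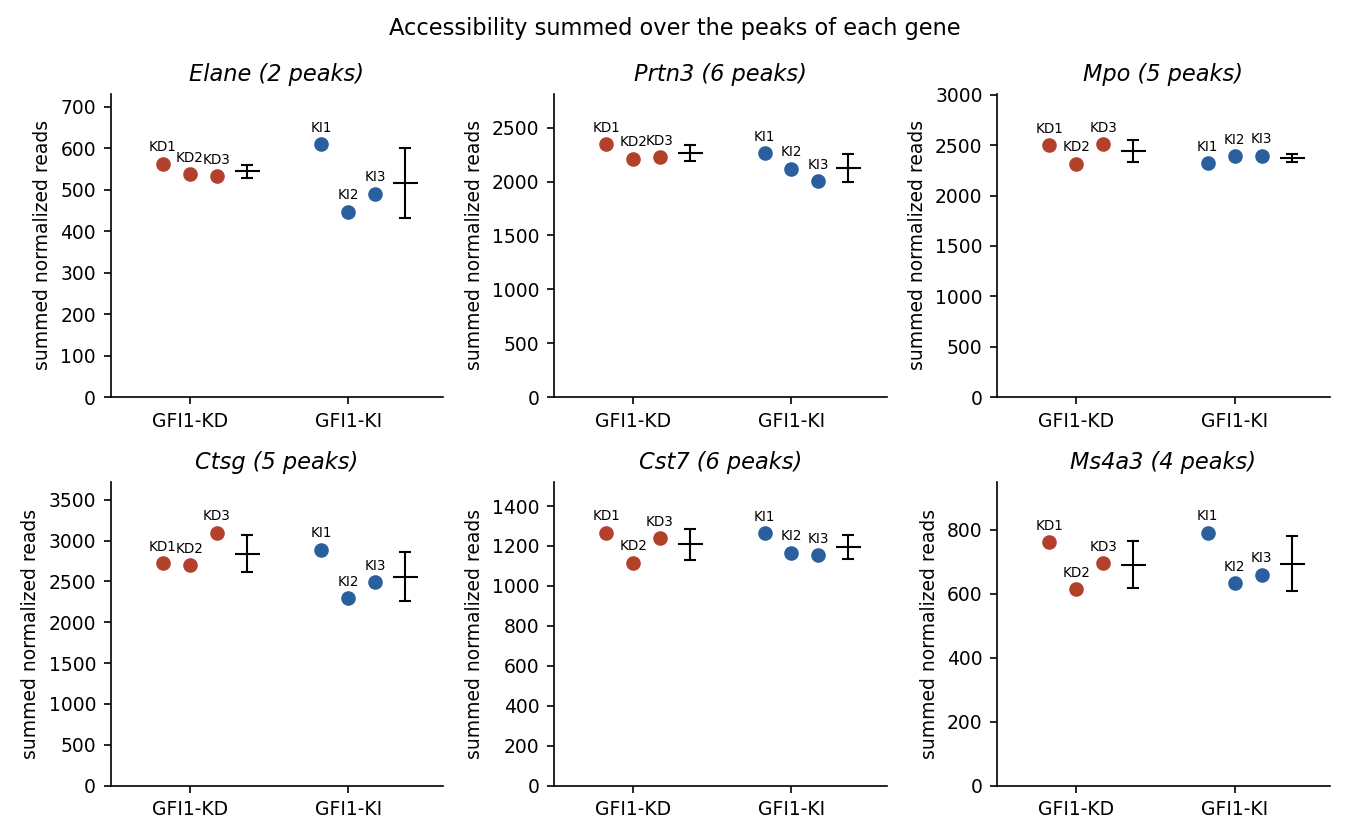
Normalized reads summed over the peaks of each gene in each of the 6 libraries (points), with the mean and SD of each genotype (n = 3) beside them, on axes that start at 0. The genotypes overlap in every gene, and KI1 is the highest of the 6 libraries for Elane and Ms4a3.

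The scaling of the libraries bore on how the sum over all 28 peaks compared. With the deposited scaling it was 10160, 9497 and 10301 normalized reads in KD1 to KD3, against 10138, 9050 and 9188 in KI1 to KI3, so that KI1 lay among the GFI1-KD libraries. Scaled to the reads in peaks of each library (RPM of reads in peaks) it was 478, 480 and 485 RPM in GFI1-KD, against 464, 424 and 439 RPM in GFI1-KI, and the genotypes did not overlap. Equal totals moved the median log2 fold change of all tested peaks to -0.01, against -0.05 with the deposited scaling. Over all gene sums that median was -0.04 with equal totals, against -0.08 with the deposited scaling. With equal totals the sum of Prtn3 was called higher in GFI1-KD (limma adjusted p = 0.0438) along with that of Ctsg. The share of all gene sums called with equal totals is not given here.

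**Figure D3:**
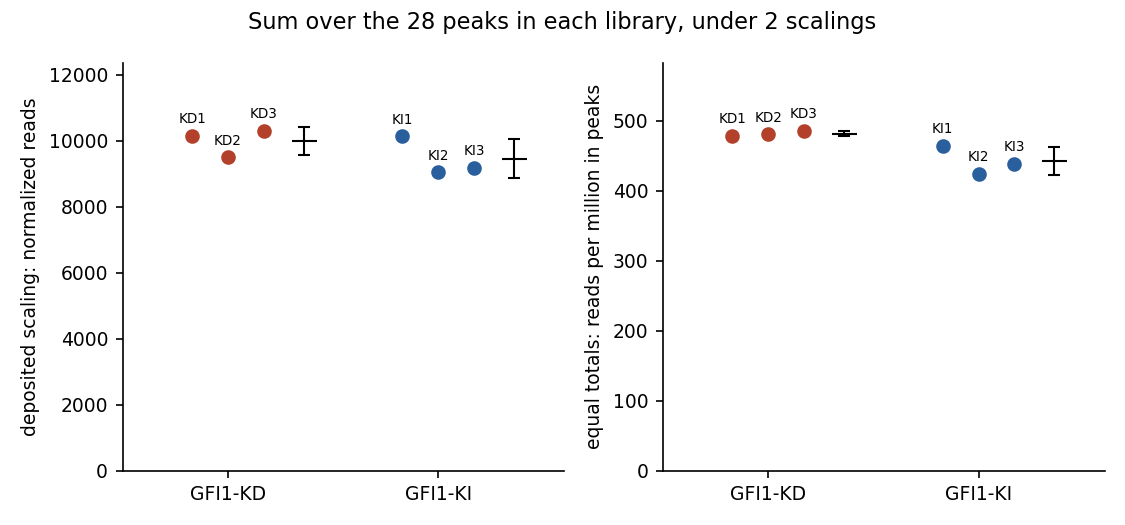
Sum over the 28 peaks in each library with the deposited scaling (left, normalized reads) and as RPM of reads in peaks (right), with the mean and SD of each genotype (n = 3). KI1 lies among the GFI1-KD libraries on the left and below them, at 464 against 478 to 485, on the right.

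At the Mpo locus (chromosome 11, 87793784 to 87804412, mm10) the 5 peaks ran from 3.8 kb before the start site to just past the 3′ end. The called peak, from 87804698 to 87805351, began 286 bases past that end. It held 357, 452 and 390 normalized reads in GFI1-KD, against 251, 330 and 324 in GFI1-KI. The lowest GFI1-KD library stood above the highest GFI1-KI library, with a gap smaller than the spread within either genotype. The means were 400 ± 47.9 in GFI1-KD and 302 ± 43.8 in GFI1-KI (SD, n = 3 each), a log2 fold change of 0.41 ± 0.11 (± SE; adjusted p from limma = 0.0242). The call was lost without KD2 (limma adjusted p = 0.118), KD3 (0.0702) or KI1 (0.0883), and over 17 alternatives the adjusted p ran from 0.00826 to 0.118.

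The peak over the Mpo start site, which held the most reads of the 28, had a fold change of the opposite sign. It spanned 971 bases from 87793271 to 87794242 and held 1323, 1168 and 1306 normalized reads in GFI1-KD, against 1332, 1398 and 1380 in GFI1-KI. All 3 GFI1-KD values were the lower ones, but the log2 fold change of -0.12 ± 0.06 did not pass the test (95% interval -0.24 to 0.01, limma adjusted p = 0.245). The larger upstream peak, 3.3 kb before the start, had a higher level per length in both genotypes than the weak peak beside it, at 1540 against 371 normalized reads per kb in GFI1-KD and 1376 against 298 in GFI1-KI. Their log2 fold changes were 0.16 and 0.31, and the peak inside the gene had -0.09. Just outside the set, a peak from 87789538 to 87789690 lay 4.1 kb from Mpo but nearer to Tspoap1. It was higher in GFI1-KD, with 41.7, 106 and 83.2 normalized reads against 37.2, 35.1 and 32.5 in GFI1-KI (log2 fold change 1.02 ± 0.25, limma adjusted p = 0.0104). KD1 stood near the GFI1-KI libraries there. A further 2 called peaks nearest to Tspoap1, 33.3 and 38.0 kb from Mpo, were lower in GFI1-KD, with log2 fold changes of -0.62 ± 0.18 and -0.28 ± 0.07 (limma adjusted p = 0.0294 and 0.0128).

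**Figure D4:**
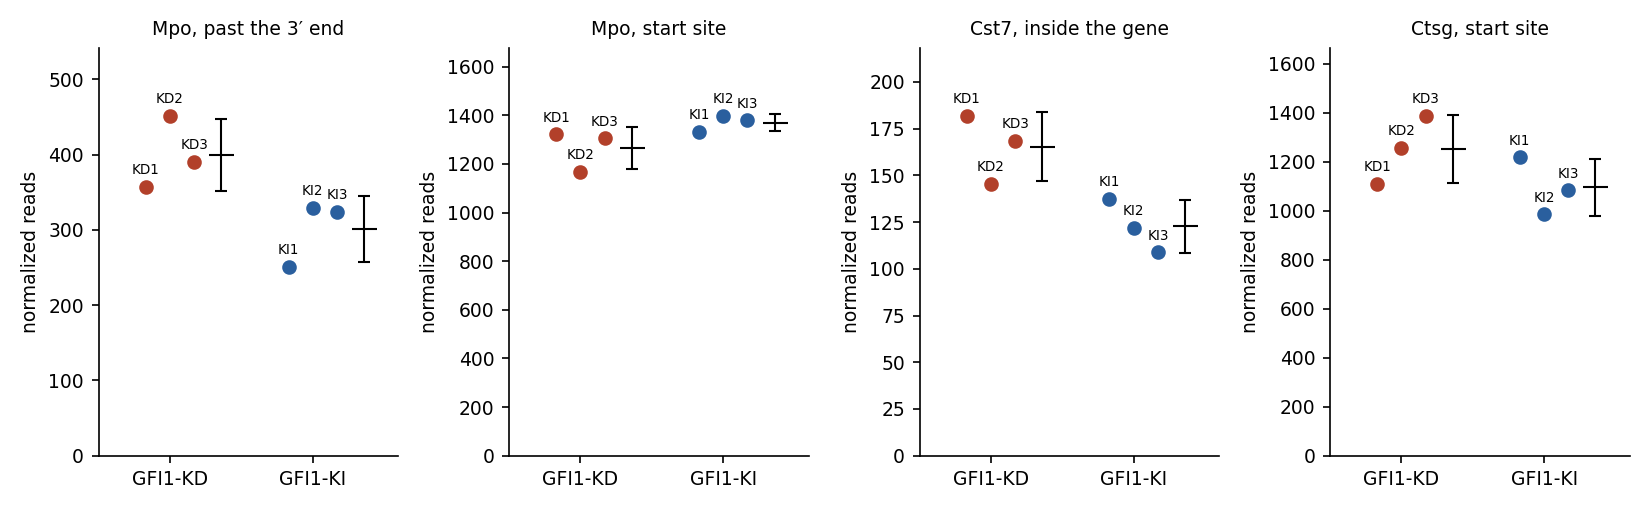
Normalized reads in each library (points) with the mean and SD of each genotype (n = 3) for 4 peaks, on axes that start at 0. The genotypes do not overlap in the Mpo peak past the 3′ end, the Mpo start peak and the Cst7 peak inside the gene, and they overlap in the Ctsg start peak.

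Elane (79886312 to 79888216) and Prtn3 (79879667 to 79883174) lie next to each other on chromosome 10, both read in the same direction, and none of their 8 peaks was called. The Elane start peak, from 79886080 to 79886414, held 454, 437 and 432 normalized reads in GFI1-KD, against 500, 353 and 402 in GFI1-KI. The means were 441 ± 11.2 in GFI1-KD and 418 ± 74.7 in GFI1-KI (SD, n = 3 each), with the wider spread in GFI1-KI. The log2 fold change was 0.09 ± 0.11 (95% interval -0.13 to 0.31, limma adjusted p = 0.638). The other Elane peak, 1079 bases upstream, had a log2 fold change of 0.08, with 99.8 to 109 normalized reads in GFI1-KD and 89.1 to 110 in GFI1-KI.

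The highest Prtn3 peak lay 1.3 kb upstream, from 79877721 to 79878338. It held 1022, 908 and 979 normalized reads in GFI1-KD, against 1003, 912 and 900 in GFI1-KI, and at 1572 per kb in GFI1-KD and 1521 per kb in GFI1-KI it had the highest level per length of the 28. The genotypes overlapped almost fully, with a log2 fold change of 0.05 ± 0.07 (95% interval -0.10 to 0.19, limma adjusted p = 0.721). The Prtn3 peak with the smallest p lay inside the gene, from 79882123 to 79882254. It held 132, 112 and 124 normalized reads in GFI1-KD, against 169, 168 and 134 in GFI1-KI. The genotypes did not overlap, but the log2 fold change of -0.35 ± 0.14 did not pass the adjusted threshold (limma adjusted p = 0.11). Of the other 4 Prtn3 peaks, the one 2.1 kb upstream also had no overlap, at 281 to 303 in GFI1-KD against 236 to 274 in GFI1-KI (log2 fold change 0.19). The remaining 3 had log2 fold changes of 0.10 to 0.25. The highest of these was at the peak 1.1 kb past the gene (95% interval 0.03 to 0.46, limma adjusted p = 0.136). That peak was called with equal totals, with edgeR and without KI1. In the 50 kb around Elane and around Prtn3, 42 and 45 tested peaks were found, most of them nearer to other genes, and 0 of either were called. These windows overlap for most of their length, so most peaks were counted in both.

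The Ctsg gene (chromosome 14, 56099885 to 56102574) is read from the minus strand. Its start peak, from 56101947 to 56102770, held 1110, 1258 and 1388 normalized reads in GFI1-KD, against 1219, 986 and 1083 in GFI1-KI. KI1 lay between the GFI1-KD libraries. The log2 fold change was 0.19 ± 0.08 (95% interval 0.02 to 0.36, limma adjusted p = 0.134), with a range of 0.0229 to 0.512 over 17 alternatives, and the peak was called in 5 of them, with equal totals (0.0407), median-of-ratios scaling (0.0450) and edgeR (0.0438), without KI1 (0.0316) and without KD1 (0.0229). A pair of peaks upstream, 2.5 and 2.9 kb before the start, had log2 fold changes of 0.22 and 0.18. Both were called without KI1. In KI1 they held 429 and 701 normalized reads, inside the ranges of 398 to 473 and 580 to 722 of the GFI1-KD libraries. KI2 and KI3 stood below those ranges. Downstream, the peaks 645 bases and 6.2 kb past the gene had log2 fold changes of 0.05 and -0.13. Beyond them, 2 peaks nearer to Mcpt8, a mast cell and basophil protease gene, were called in opposite directions. The one 8.2 kb from Ctsg had a log2 fold change of 0.67 ± 0.16 (limma adjusted p = 0.0105), and the one 17.4 kb away held few reads and had -0.93 ± 0.29 (0.0454).

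Cst7 (chromosome 2, 150570415 to 150578944) had 6 peaks and none was called, but 1 inside the gene came to the edge of the threshold. This peak, from 150572436 to 150572788, held 182, 146 and 169 normalized reads in GFI1-KD, against 137, 122 and 109 in GFI1-KI. All GFI1-KD values were higher. The means were 165 ± 18.3 in GFI1-KD and 123 ± 14.3 in GFI1-KI (SD, n = 3 each), a log2 fold change of 0.43 ± 0.14 (95% interval 0.14 to 0.72, limma adjusted p = 0.0501). It passed the threshold in 12 of 17 alternatives, with a range of 0.0144 to 0.237, so the call rests on the setting. The start peak, from 150569927 to 150570546, held 511, 449 and 472 in GFI1-KD against 519, 508 and 485 in GFI1-KI, with no difference past the test (log2 fold change -0.08 ± 0.085, 95% interval -0.26 to 0.10, limma adjusted p = 0.606). The other 4 had log2 fold changes of -0.40 to 0.09, the lowest at the peak 11.5 kb upstream (limma adjusted p = 0.169).

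Ms4a3 (chromosome 19, 11629499 to 11640851), also on the minus strand, had a start peak and 3 weaker peaks inside the gene. The start peak, from 11640665 to 11641180, held 510, 399 and 448 normalized reads in GFI1-KD, against 482, 346 and 383 in GFI1-KI. The genotypes overlapped, with a log2 fold change of 0.17 ± 0.11 (95% interval -0.06 to 0.40, limma adjusted p = 0.365). The peak with the smallest p, from 11635661 to 11636005, held 156, 143 and 166 in GFI1-KD against 234, 190 and 172 in GFI1-KI. Its log2 fold change was -0.35 ± 0.13 (limma adjusted p = 0.0982). The peak with the lowest mean over the 6 libraries of all 28, from 11634430 to 11634720, held 32.1 to 35.8 in GFI1-KD and 39.4 to 61.9 in GFI1-KI, with the lowest log2 fold change, -0.52 ± 0.21 (limma adjusted p = 0.112). Both had no overlap between genotypes. The third peak inside the gene had a log2 fold change of 0.19.

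By position, the 8 peaks inside a gene and away from its start had a median log2 fold change of -0.22, with 5 below 0, against -0.04 over all tested peaks so placed at any gene. The 10 upstream peaks had a median of 0.13, with 9 above 0, against -0.02, the 5 start peaks 0.09 against -0.13, and the 5 downstream peaks 0.10 against -0.05. Per length, the 5 start peaks held 772 to 1521 normalized reads per kb in GFI1-KD and 784 to 1411 in GFI1-KI, against medians of 638 in GFI1-KD and 689 in GFI1-KI over all start peaks. Among the 10646 peaks over a protein-coding start site they stood between the 61.6 percentile, at Cst7, and the 90.7 percentile, at Ctsg. The peaks inside genes were weaker, with a median of 433 per kb in GFI1-KD and 427 in GFI1-KI.

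**Figure D5:**
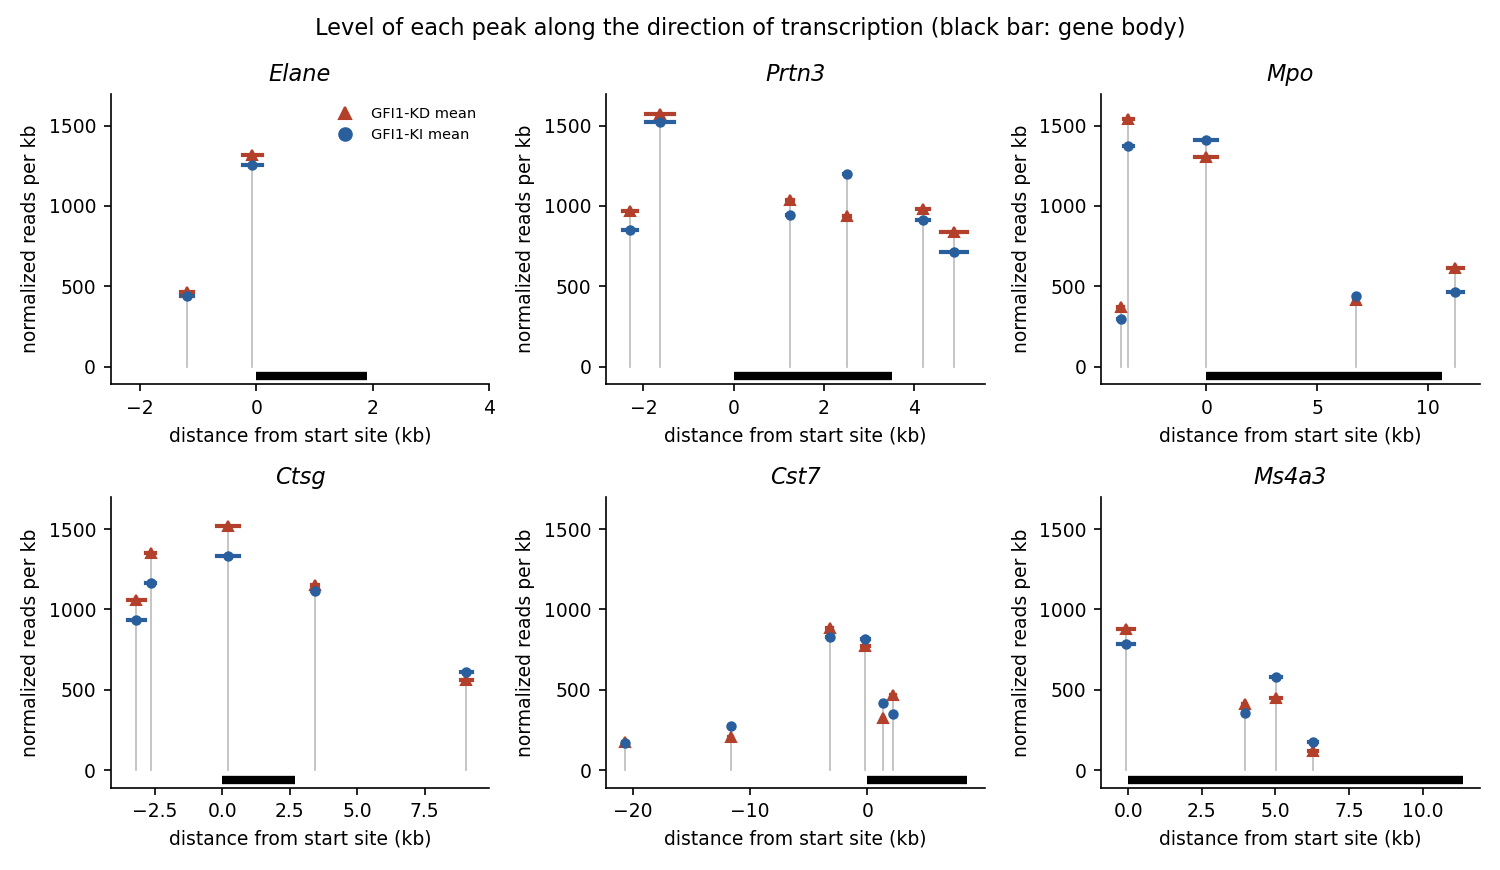
Level of each peak as normalized reads per kb of peak (GFI1-KD mean, triangles; GFI1-KI mean, circles; n = 3 each) against its distance from the start site in kb along the direction of transcription, with the peak's width as a horizontal line and the gene body as a black bar. The highest level is the Prtn3 peak 1.3 kb upstream, at 1572 in GFI1-KD and 1521 in GFI1-KI, and Prtn3 has no peak at its start.

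Over the 6 libraries the summed levels of the members varied together in part. Pearson correlations of their log2 sums over the 6 libraries ran from -0.09, between Elane and Mpo, to 0.94, between Cst7 and Ms4a3. The libraries differ in depth and genotype, and all members are measured in the same ones. How much of the correlations this makes was not tested. The 5 genes on chromosomes without a member with the profile most like the mean of the 6 were Itpkb, Zc3h3, Agbl5, Tmem53 and H2bl1 (Pearson r of 0.988 to 0.998 over 6 libraries, among 10169 genes with at least 3 tested peaks). They were picked for this profile, in which KI1 stood above KI2 and KI3, so the same order in all 5 is no separate result. Nor is it a separate result that their gene sums did not pass the test (limma adjusted p of 0.339 to 0.571).

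Related genes were then counted for comparison. Of 10 other primary granule and lysosomal genes, with 96 tested peaks, 4 peaks were higher and 3 lower in GFI1-KD (7.29%, median log2 fold change -0.03). Srgn, whose product serglycin packs proteases into granules, had 3 of these lower peaks and 1 higher among 24. The one with the smallest p, 1.2 kb downstream of Srgn, held 151, 109 and 131 normalized reads in GFI1-KD, against 177, 235 and 227 in GFI1-KI (log2 fold change -0.71 ± 0.14, limma adjusted p = 0.00308). Ctsc, whose product cathepsin C activates the granule proteases, had 1 of 26 peaks higher, and the lysozyme genes Lyz1 and Lyz2 had 1 higher each, of 7 and 4. Among inhibitors of granule proteases 3 of 29 peaks were higher and none lower (10.3%, median 0.11), 2 of them at Slpi, an inhibitor of elastase and cathepsin G. Serpina3g had 1 of 5 higher, and Serpinb1a had none called of 12. The Slpi peak with the smallest p held 58.8, 48.1 and 41.0 in GFI1-KD against 28.1, 21.9 and 23.4 in GFI1-KI (0.97 ± 0.22, limma adjusted p = 0.00640).

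The late granule genes had 6 peaks higher and 1 lower of 46 (15.2%, median 0.20). Mmp8, a neutrophil collagenase, had 4 of its 9 peaks higher and none lower, Camp, a cathelicidin, 1 of 2 higher, and Ltf, lactoferrin, 1 higher and 1 lower of 12. Mmp9, Ngp, S100a8 and S100a9 had none called of 9, 2, 4 and 8 peaks, and Lcn2 had no tested peak. The Ltf peak with the smallest p changed by -1.27 ± 0.27 (limma adjusted p = 0.00457). The summed start peaks of the mature neutrophil markers Ltf, Ngp, Mmp8 and Cxcr2, given above, overlapped between the genotypes, and their part in these counts was not tested. Whether the late granule list differed from the 6 primary granule genes was not tested. The 8 genes of factors that act at primary granule genes had 9 peaks higher and 14 lower of 213 (10.8%, median -0.07). Runx1 had 9 lower and 3 higher of 77, Myb 3 lower of 41, and Gfi1, the locus replaced in both genotypes, 3 higher and 2 lower of 13. Irf8, a factor of the monocyte and dendritic lineages, had 2 of 35 higher, the leading one at 169, 122 and 153 normalized reads in GFI1-KD against 84.4, 63.1 and 74.8 in GFI1-KI (0.99 ± 0.16, limma adjusted p = 0.000499). Spi1, which encodes PU.1, had 1 of 16 higher, and Cebpa, Cebpe and Cbfb had none called.

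The neighbours of the members were read against the 10.5% of all tested peaks that were called. In the 50 kb around the 6 genes, whichever gene was nearest, 3 peaks were higher and 3 lower of 118 tested (5.08%), all at the Mpo and Ctsg loci. The granzyme and mast cell protease genes beside Ctsg had 1 higher and 2 lower of 31 (9.68%, median -0.07). The peroxidase genes Lpo and Epx beside Mpo had 1 lower of 9 (11.1%, median -0.11), 6.2 kb upstream of Epx, eosinophil peroxidase (-0.83 ± 0.18, limma adjusted p = 0.00450). Of 22 peaks at Prss57, Cfd, Gzmm, Bsg and Med16, near Elane and Prtn3, 1 was lower (4.55%, median -0.06), inside Bsg (-0.27 ± 0.07, limma adjusted p = 0.0152). The other Ms4a genes had 2 higher and 2 lower of 87 (4.6%, median 0.10), with the smallest p at Ms4a10 (-0.85 ± 0.20, limma adjusted p = 0.00828). Cst3, Apmap and Acss1 were listed as neighbours of Cst7 without a limit on distance. Of their 23 peaks 2 were lower (8.7%, median -0.12), both at Acss1, which encodes an acetyl-CoA synthetase. The leading one held 59.9, 37.0 and 61.0 normalized reads in GFI1-KD against 100.2, 154 and 126 in GFI1-KI (-1.27 ± 0.20, limma adjusted p = 0.000343).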

How the data were processed

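ATAC-seq libraries of sorted progenitors were analysed from 1 deposited table of consensus peaks, in which the authors give normalized read counts, a coverage signal per peak. Per the submitters' processing notes the build was mm10, and the tools, listed without their roles, were DiffBind, MACS2, BWA, HOMER, ChIPseeker, Picard, SAMtools and Trim Galore. No source used here gives how peaks were merged, how libraries were scaled or whether reads were shifted for the transposase. The WT columns were taken as GFI1-KI of the same number. Each value was a whole multiple of 1 step per column (100% within 0.01 reads), so reads could be recovered. Chromosome codes were read in alphabetical order, which put 16% of peaks within 1 kb of a gene end, against 2.62% in numeric order. Peak positions are printed as deposited, and whether their starts count from 0 or from 1 is not stated. Genes came from RefSeq (GRCm38.p6, 21887 protein-coding genes), start sites and strands from its promoter table.

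The genotypes were tested with limma 3.58.1 in R 4.3.3. The fit took log2(value + 1), used a trended prior variance, and ran over all peaks of mean 10 or more and over gene sums, with Benjamini-Hochberg adjustment over all tested and a threshold of 0.05. Fold changes are on that scale. The fit was tested on simulated data. edgeR 4.0.16 and DESeq2 1.42.0 were run on recovered reads. Chromosome Y reads were 0 in KD1 and 1 in KI2, against 499 in KD2, 618 in KD3, 608 in KI1 and 865 in KI3. The named peaks of each member are those called, the highest, the one with the smallest p and the one over the start. Members and lists were chosen with earlier results of these data known. Other peaks of members, and neighbouring peaks, were named after their values were seen. The deviations of same-numbered libraries correlated weakly, which does not settle whether they were handled together. The fit with the replicate number as a block is an alternative.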

Additional observations from a re-analysis of the deposited data

How the results depend on the processing

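The number of member peaks called higher in GFI1-KD, 1 with the deposited scaling, was 4 with equal totals and with edgeR, 3 with median-of-ratios scaling, and 2 with a pseudocount of 5, no filter, a minimum mean of 50, robust variance estimation, DESeq2, a term for chromosome Y reads, or a threshold of 0.1. With the replicate block it was also 2. Counting any peak within 50 kb of a member gave 3 higher and 3 lower, and the threshold of 0.1 gave 1 lower. Leaving out 1 library at a time gave 0 to 5 higher and 0 to 1 lower. The 5 higher and 1 lower came without KI1, when 13% of all tested peaks were called, and the 0 without KD3, when 6.31% were. With equal totals, edgeR, no filter and DESeq2 the shares of all tested peaks were 11.8%, 12.6%, 9.8% and 6.34%. They were 11.4% with median-of-ratios scaling, 10.8% with the pseudocount of 5 and with robust variance estimation, and 15.3% with the minimum mean of 50. With the chromosome Y term and the replicate block they were 11.2% and 11.1%. The share at the threshold of 0.1 is not given here, so the counts at that threshold stand without it.

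The log2 fold change of the Ctsg sum, 0.15 with the deposited scaling, was called at 0.20 with equal totals and with median-of-ratios scaling, 0.23 with edgeR and DESeq2 and 0.15 with the replicate block. That of Prtn3, 0.09, was called at 0.13 with equal totals and 0.17 with edgeR and DESeq2, and that of Mpo, 0.04, at 0.12 with edgeR (adjusted p = 0.0477). The shares of all gene sums called in these settings are not given, so these calls stand without them. Cst7, at 0.02, turned to -0.038 as the mean of log2 values over peaks. Ms4a3, at -0.01, turned to 0.036 with equal totals, 0.038 with median-of-ratios scaling, 0.079 with edgeR and 0.074 with DESeq2, and was called in none. Leaving out 1 library gave -0.0082 to 0.22 for Elane, 0.05 to 0.13 for Prtn3, 0.02 to 0.08 for Mpo, 0.080 to 0.25 for Ctsg, -0.020 to 0.070 for Cst7 and -0.081 to 0.089 for Ms4a3, and the Elane start peak turned to -0.023 without KI2. Among the member peaks and sums the block changed the calls of the Ctsg sum and of the Cst7 peak inside the gene and no other. The deviations of same-numbered libraries from their genotype means correlated at -0.04 to 0.06, against -0.06 to 0.09 for libraries of unlike number. Such values cannot show whether same-numbered libraries were handled together. The causes of these shifts were not tested.

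In the related lists, a threshold of 0.1 moved the called peaks to 14 for the other granule genes, 7 for the inhibitors, 37 for the factors, 13 for the late granule genes, 5 for the neighbours of Ctsg, 12 for those of Ms4a3 and 3 each for those of Cst7 and of Elane and Prtn3. The share of all tested peaks at that threshold is not given, so these counts stand without it. Equal totals gave 7 for the inhibitors, 9 for the Ms4a genes and 2 for the neighbours of Elane and Prtn3, when 11.8% of all tested peaks were called. Leaving out 1 library, an alternative added after seeing the data, gave 2 to 13 for the other granule genes, 1 to 6 for the inhibitors, 9 to 29 for the factors and 1 to 13 for the late granule genes. It gave 1 to 5 for the neighbours of Ctsg, 0 to 3 for those of Elane and Prtn3, 0 to 14 for those of Ms4a3, 1 to 4 for those of Cst7 and 0 to 1 for the peroxidase genes. Leaving the neighbours of Cst7 and the peroxidase genes aside, the highest of these counts came without KI1 in each list, when 13% of all tested peaks were called. The lowest came without KI2 or KI3, when 4.23% and 4.11% of all tested peaks were called. Counts were as low without KD3 for the inhibitors and the neighbours of Ctsg, when 6.31% were called. With 3 libraries a group, an exact permutation test of a single value cannot go below p = 0.1.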
